A study of Bos taurus with 27 samples.

Results

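Genes for amino acid transport and for signalling through mTOR, the kinase that couples growth to nutrients, were examined in 27 pools of bovine blastocysts. The 43 genes were taken by symbol from a table of 32637 genes. They were 24 transporter genes, 17 genes of the mTOR pathway, ODC1 and GLUL. All 43 were in the table, and 35 of them were retained at a minimum of 1 CPM (counts scaled to 1000000 per pool) in 12 pools, as were 12310 genes in all. The retained genes included 18 of the 24 transporters, 15 of the 17 mTOR pathway genes and both enzymes.

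Each pool held RNA from 2 expanding or expanded blastocysts of the best quality score, grown in KSOM medium after fertilization in vitro with semen from a single bull. The oocytes came from abattoir ovaries of mixed cattle breeds and were matured in vitro with follicular fluid of preovulatory follicles from lactating Angus cows. The follicles were of greater or lesser maturity. The labels did not say which fluid or which IVF replicate a pool came from, so all pools were described as 1 set, the 2 treatments were not compared, and no relation was recomputed within IVF replicates. A pool mixes trophectoderm, epiblast and hypoblast, and fewer cells of a type cannot be told apart from less RNA per cell.

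Amino acids enter embryonic cells through carriers of the SLC families. Some carriers exchange one amino acid for another, others are driven by sodium or protons, and several light chains reach the cell surface only when joined to the heavy chain SLC3A2. Amino acids in the lysosome are sensed by SLC38A9, which signals to the Rag GTPases. The Ragulator complex anchors the Rag GTPases at the lysosomal membrane, and they bring mTORC1 to its activator RHEB. Active mTORC1 phosphorylates S6 kinase and the 4E-BP proteins, which releases the cap-binding protein EIF4E for translation. When amino acids are short, the transcription factor ATF4 raises genes for amino acid synthesis, tRNA charging and uptake, here called the amino acid response. In ruminant conceptuses this signalling is known for its part in trophectoderm growth, and the polyamines made by ODC1 are needed for proliferation.

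Pools held 10517606 to 44253564 counts in total, so that 3 counts were equal to 0.0678 to 0.285 CPM. The kit captured transcripts at their 3′ ends, so CPM was not divided by transcript length, and every order of genes given here is an order in CPM. Pools differed by at least 23.9 in chi-square per degree of freedom and each was kept as a separate sample. In the paper, both embryos of a pool came from the same treatment and IVF replicate. There were far fewer IVF replicates than pools, so most pools shared a replicate with others. The labels do not state which pools came from separate cultures. The tests treated pools as independent and modelled no replicate or treatment, so p-values measure only the spread among these pools. These p-values can be too small if pools of the same replicate or treatment resemble each other. All 10 trophectoderm markers examined and 9 of 10 epiblast markers were retained, and among 9 hypoblast markers 6 were retained while SOX17 and FOXA2 had a median of 0. Of 10 cumulus and granulosa cell markers 3 were retained, their summed abundance was 3.78 to 34.9 CPM, and LHCGR and FOXL2 had a median of 0. Of 10 leukocyte markers 7 were retained, with a summed abundance of 211 to 693 CPM and a median of 445 CPM, and CD48 alone had a median of 329 CPM. The part of these other cell types in the results was not tested. Pool 21 stood apart in the amino acid response and pool 9 in interferon tau, the trophectoderm signal of ruminant pregnancy, and calls that depend on either are given with and without it.

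The genes covered a wide range of abundance, from ODC1 at a median of 1349 CPM to SLC7A11 and SLC6A9 at a median of 0. A median of at least 100 CPM was found for 8 genes, 14 genes were between 10 and 100 CPM, 12 were between 1 and 10 CPM, and 9 were below 1 CPM. Of the 43 genes, 27 reached 1 CPM in every pool and 11 had no counts in at least 1 pool. The 43 genes together held 2914 to 3861 CPM of a pool.

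**Figure D1:**
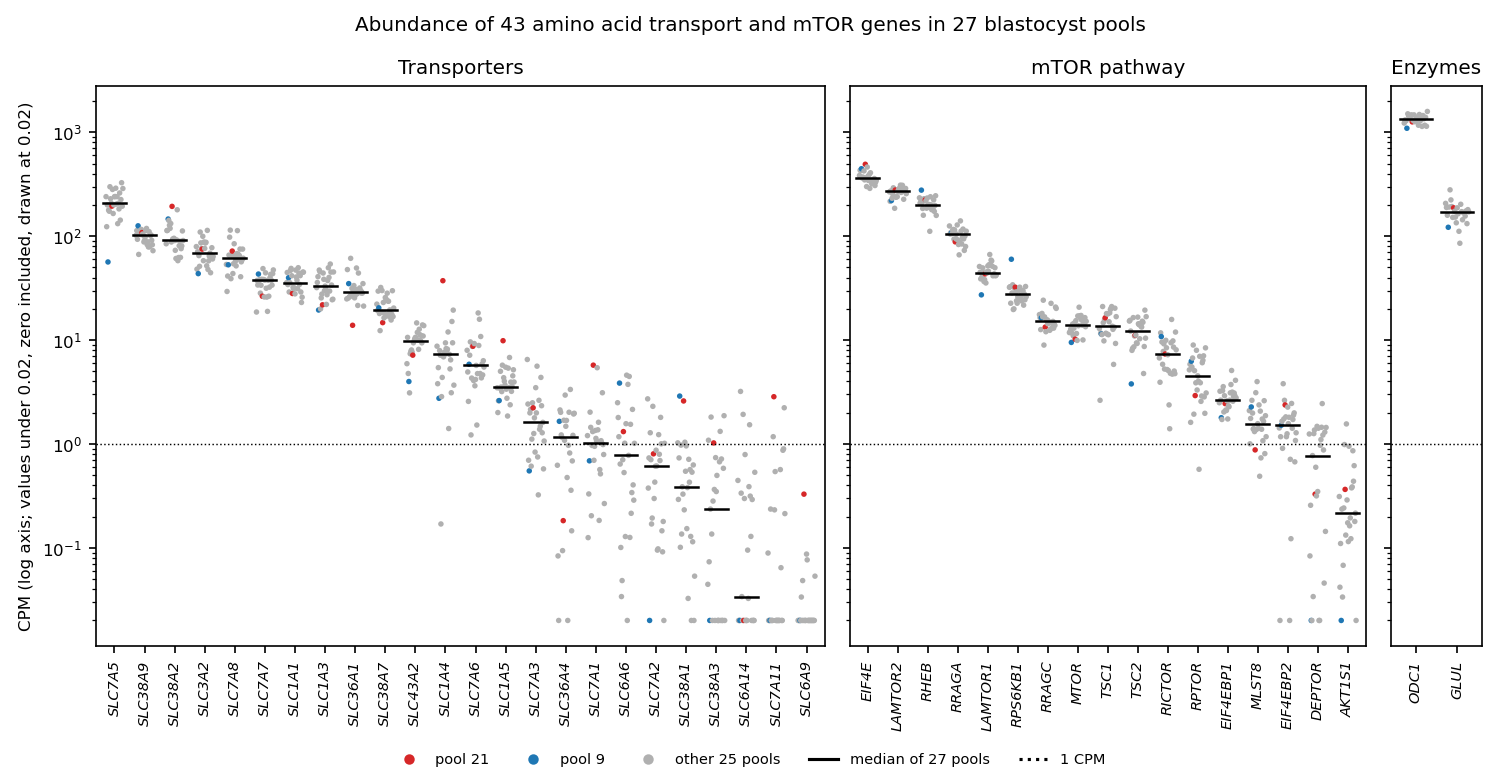
Abundance of the 43 genes in 27 pools, with the genes on the x axis in order of median within transporters, mTOR pathway and enzymes, and CPM on a log y axis on which values under 0.02, zero included, are drawn at 0.02. Points are pools (red, pool 21; blue, pool 9), black bars are medians and the dotted line is 1 CPM; ODC1 is highest at 1349 CPM, and pool 21 lies above all other pools for SLC1A4, SLC1A5 and SLC38A2.

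Most of the abundant genes differed little among pools. Over the 35 retained genes the highest pool was a median of 3.16 times the lowest, against 3.81 times over all 12310 retained genes, and the upper quartile was a median of 1.42 times the lower, against 1.51 times. Spread was wider at low abundance in both sets. The median ratio of highest to lowest pool was 13.1 in the 13 retained genes under 10 CPM and 10.4 in all retained genes under 10 CPM. It was 2.00 in the 8 genes over 100 CPM and 1.96 in all retained genes over 100 CPM. The 27 genes at 1 CPM in every pool were 77.1% of the 35, and the share over all retained genes was 72.6%.

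The most abundant transporter of the 43 genes was SLC7A5, the LAT1 light chain, which exchanges intracellular glutamine for leucine and other large neutral amino acids. In ARS-UCD2.0 the gene spans 13298159 to 13326804 on chromosome 18. Its abundance was 56.5 CPM in the lowest pool, pool 9, 207 CPM at the median and 327 CPM in the highest, pool 44. Pool 9 was well below the next pool, which had 123.5 CPM. The heavy chain SLC3A2, on chromosome 29 from 41158503 to 41199498, had 43.6 CPM in the lowest pool, which was again pool 9, a median of 68.6 CPM and 114 CPM in pool 32. SLC7A5 was above SLC3A2 in all 27 pools, at a median of 2.84 times its CPM.

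SLC7A8, the LAT2 light chain for neutral amino acids, had 29.4 CPM in the lowest pool, a median of 61.4 CPM and 114 CPM in the highest. SLC7A7, a y+L light chain that exports cationic amino acids in exchange for neutral ones, had 18.6, 37.5 and 48.8 CPM. SLC7A5 was above SLC7A8 in all 27 pools, and SLC7A8 was above SLC7A7 in 24, whereas SLC3A2 was above SLC7A8 in only 17 of 27. SLC7A6, the second y+L light chain, was much lower, with 1.22 CPM in the lowest pool, a median of 5.71 CPM and 18.3 CPM in pool 32. SLC7A11, the xCT light chain that imports cystine for glutathione synthesis, had no counts in 15 pools. It reached 1 CPM only in pool 21 (2.85 CPM), pool 45 (2.23 CPM) and pool 19 (1.18 CPM), and it was not retained. SLC43A2, the LAT4 transporter, needs no heavy chain and had a median of 9.89 CPM with a range of 3.10 to 14.6 CPM.

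Of the summed CPM of the 5 light chains, SLC7A5 made up a median of 66.8%, SLC7A8 19.4%, SLC7A7 11.5% and SLC7A6 1.87%. The SLC7A5 share was between 35.6% in pool 9 and 77.4% in pool 28. In pool 9 the shares of SLC7A8, at 33.4%, and of SLC7A7, at 27.2%, were the highest among pools.

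**Figure D2:**
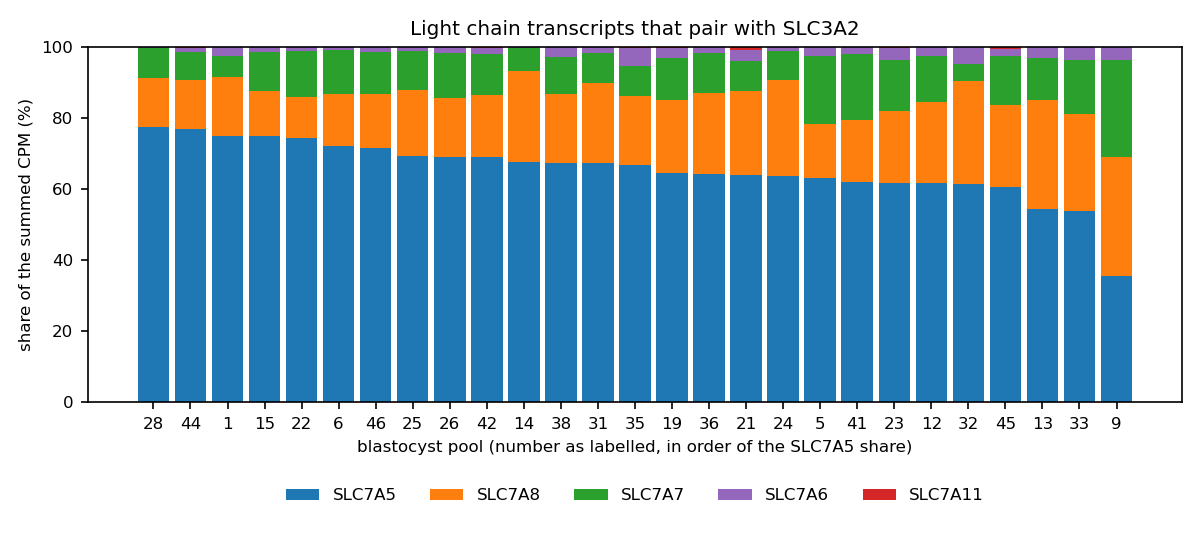
Share of the 5 light chain transcripts in each pool, as a percentage of their summed CPM on the y axis, with pools on the x axis in order of the SLC7A5 share. SLC7A5 is the largest share in every pool and is lowest, at 35.6%, in pool 9.

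The transcripts of SLC3A2 and SLC7A5, which code for the 2 chains of one transporter, varied together among pools. Spearman rho was 0.752 (permutation p = 2.0e-05, adjusted p = 0.0005 over 25 pairs) and Pearson r of log2(CPM + 1) was 0.729 (permutation p = 1e-05, the smallest that 100000 permutations can give, adjusted p = 0.00025). Without pools 14 and 32, the 2 pools farthest from the median of SLC3A2, r was 0.740. The Spearman coefficient was 0.722 without pool 9, 0.757 without pool 21 and 0.762 given the total count of the pool. As a description, 0.0329% of all pairs of retained genes had a rho at least as high. SLC3A2 ranked 9th among retained genes by rho with SLC7A5, behind SLC4A2 (0.822), RCC2 (0.815) and others. The other light chains did not pass the test. With SLC3A2, rho was -0.352 for SLC7A6 (permutation p = 0.0719, adjusted p = 0.282), -0.322 for SLC7A7 (permutation p = 0.101, adjusted p = 0.282) and 0.151 for SLC7A8 (permutation p = 0.451, adjusted p = 0.627). The difference between these correlations and that of SLC7A5 was not tested.

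**Figure D3:**
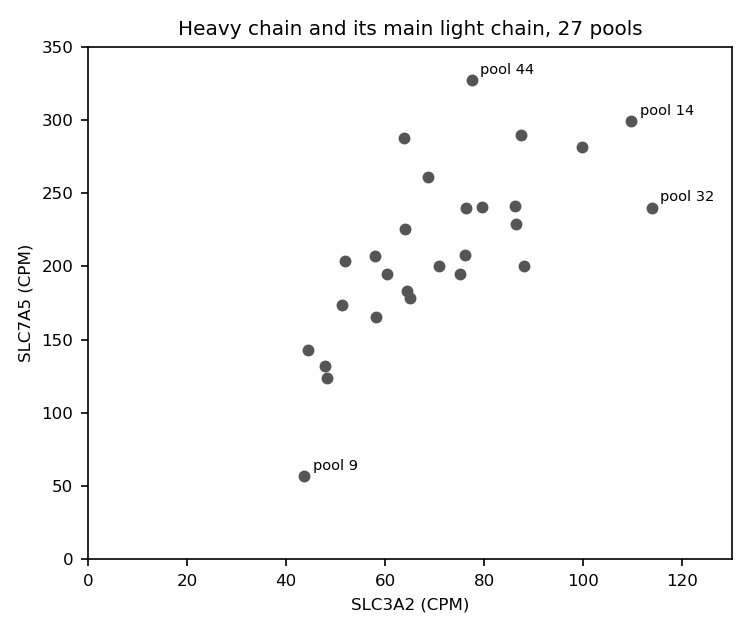
SLC7A5 (y axis, CPM) against SLC3A2 (x axis, CPM), with 1 point for each of 27 pools. Both genes are lowest in pool 9, and rho over the 27 pools is 0.752.

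The cationic amino acid transporters SLC7A1, SLC7A2 and SLC7A3, which supply arginine and lysine, were scarce. SLC7A3 on the X chromosome had a median of 1.61 CPM, and SLC7A1, the widely expressed CAT1, had 1.02 CPM. SLC7A1 was 0.125 CPM in its lowest pool and 5.74 and 5.42 CPM in pools 21 and 28, and was lower in every other pool. SLC7A2 had a median of 0.613 CPM and was not retained. The 3 genes together had a median of 3.17 CPM.

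Glutamate transporters were more abundant. SLC1A1 and SLC1A3, which take up glutamate and aspartate with sodium, had medians of 35.7 and 33.1 CPM, ranged over 23.0 to 49.8 CPM and 19.5 to 54.0 CPM, and did not separate, since SLC1A1 was the higher in 16 of 27 pools. The neutral amino acid exchangers of the same family were lower. SLC1A5 (ASCT2), which imports glutamine, had 1.86 CPM in the lowest pool, a median of 3.57 CPM and 9.87 CPM in pool 21.

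SLC1A4 (ASCT1), an exchanger of serine, alanine and cysteine on chromosome 11 from 63379682 to 63409620, had the widest ratio of highest to lowest pool of the 43 genes with counts in every pool. It had 0.170 CPM in pool 14, which was 5 counts, a median of 7.29 CPM and 37.3 CPM in pool 21. Pools 45 and 42 followed with 19.4 and 15.1 CPM, and all others were at or below 12.0 CPM.

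The 3 transporters of the SLC6 family among the 43 genes had medians under 1 CPM. SLC6A6, which carries taurine, had a median of 0.777 CPM and a highest value of 4.60 CPM. SLC6A14, a broad importer of neutral and cationic amino acids on the X chromosome, had no counts in 12 of the 27 pools and at most 3.21 CPM. SLC6A9, the glycine transporter GLYT1, had 15 counts in all pools together, of which 9 were in pool 21.

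Among the sodium-coupled SLC38 transporters of small neutral amino acids, SLC38A2 (SNAT2) was the main gene. It had 58.2 CPM in the lowest pool, a median of 92.2 CPM, 180 CPM in pool 32 and 194 CPM in pool 21. SLC38A7, which exports glutamine from lysosomes, had a median of 19.5 CPM and was below SLC38A2 in all 27 pools. SLC38A1, the other widespread system A carrier, had a median of 0.387 CPM. SLC38A3, which carries glutamine and histidine in liver, had 0.236 CPM. Neither of these was retained.

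Among transporters acting at the lysosome, SLC38A9, an arginine-sensing transporter that signals to the Rag GTPases (chromosome 20, 23441411 to 23542902), was the most abundant and had 66.8 CPM in the lowest pool, a median of 102 CPM and 126 CPM in the highest, pool 9. The proton-coupled transporter SLC36A1 had a median of 29.0 CPM, with its lowest value in pool 21 (13.9 CPM) and its highest in pool 14 (61.2 CPM). Its relative SLC36A4 had a median of 1.16 CPM and no counts in 2 pools.

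The Rag and Ragulator genes were among the more abundant of the pathway. LAMTOR2, a Ragulator subunit, had 186 CPM in the lowest pool, a median of 270 CPM and 310 CPM in the highest. LAMTOR1, the subunit anchored in the lysosomal membrane, had 27.3, 44.5 and 66.7 CPM and was below LAMTOR2 in all 27 pools. RRAGA, a Rag GTPase, had 66.2, 105 and 140 CPM, and its partner RRAGC had 8.96, 15.1 and 24.2 CPM. RRAGA was above RRAGC in all 27 pools, at a median of 6.79 times its CPM. Their rho was 0.358 (permutation p = 0.0677, adjusted p = 0.282), and that of LAMTOR1 with LAMTOR2 was 0.409 (permutation p = 0.0347, adjusted p = 0.282), so neither pair passed the test.

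RHEB, the GTPase that switches mTORC1 on, had 112 CPM in pool 31, a median of 202 CPM and 278 CPM in pool 9. TSC1 and TSC2, the complex that switches RHEB off, had medians of 13.6 and 12.2 CPM and ranged over 2.63 to 21.0 CPM and 3.79 to 19.4 CPM. RHEB was above both in all 27 pools. The 2 TSC genes did not separate, with TSC1 the higher in 18 pools, and rho of TSC2 with RHEB was -0.318 (permutation p = 0.105, adjusted p = 0.282).

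The genes of the mTOR complexes had medians below the 14.4 CPM of all 12310 retained genes, with MTOR close to that value. MTOR itself had 9.50 CPM in the lowest pool, a median of 13.9 CPM and 20.7 CPM in the highest. RICTOR, which defines mTORC2, had 1.40, 7.34 and 15.8 CPM. RPTOR, which defines mTORC1, had 0.570, 4.53 and 8.96 CPM. MTOR was above RPTOR in all 27 pools and above RICTOR in 25, and RICTOR was above RPTOR in 22. MLST8, a subunit of both complexes, had a median of 1.57 CPM. The inhibitory subunits DEPTOR, with a median of 0.773 CPM, and AKT1S1 (PRAS40), with 0.216 CPM, were not retained, and AKT1S1 reached 1 CPM in 1 pool. The Spearman coefficient of MTOR was -0.339 with RPTOR (permutation p = 0.0849, adjusted p = 0.282) and -0.314 with RICTOR (permutation p = 0.111, adjusted p = 0.282), so the complex partners were not shown to vary together.

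EIF4E, the cap-binding protein at the end of the pathway, spans 25667219 to 25707915 on chromosome 6 and had 289 CPM in the lowest pool, a median of 363 CPM and 493 CPM in pool 21. Of its repressors, EIF4EBP1 and EIF4EBP2 were scarce. EIF4EBP1 had a median of 2.64 CPM with a range of 1.72 to 5.10 CPM, and EIF4EBP2 had a median of 1.51 CPM with no counts in 2 pools. EIF4E was 62.8 to 249 times EIF4EBP1, with a median of 133.5 times. EIF4EBP1 was above EIF4EBP2 in 25 of 27 pools. RPS6KB1, the S6 kinase, had 19.7 CPM in the lowest pool, a median of 27.8 CPM and 60.0 CPM in pool 9, while the next pool had 34.1 CPM.

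ODC1, which makes putrescine from ornithine in the first step of polyamine synthesis, was the most abundant of the 43 genes by its lowest, median and highest pool. The gene spans 87197614 to 87204764 on chromosome 11. It had 1095 CPM in the lowest pool, 1349 CPM at the median and 1589 CPM in the highest. The highest pool was 1.45 times the lowest. ODC1 was above OAZ1, the antizyme that sends ODC1 for degradation and itself had a median of 1079 CPM, in 25 of 27 pools. GLUL, which makes glutamine from glutamate, had 85.6 CPM in the lowest pool, a median of 172 CPM and 280 CPM in pool 13. The Spearman coefficient of GLUL with the glutamine transporter SLC38A2 was 0.452 (permutation p = 0.0196, adjusted p = 0.245). Without pool 9 it was 0.575 and passed the test (permutation test, adjusted p = 0.0286).

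Of 30 listed pairs of genes that act in one complex or in linked steps, 25 had both genes retained, and SLC3A2 with SLC7A5 was the 1 pair that passed the test over all pools. The unadjusted p was 0.05 or less for 3 pairs. Over all 595 pairs of the 35 retained genes the median rho was 0.004 and 1.34% of pairs had a rho of at least 0.5. Over all pairs of retained genes these values were 0.025 and 1.88%.

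Abundance was next related to 4 measures of the pools, each scaled to an SD of 1, by slopes from edgeR's quasi-likelihood test with Benjamini-Hochberg adjustment over all genes tested. The first measure was an amino acid response score, the mean standardized abundance of 21 retained genes such as ATF4, ASNS, PSAT1 and CHAC1, none of which is among the 43 genes. The score was 3.71 SD in pool 21, 1.72 SD in pool 45 and lower in all others. It is a measure of transcripts and not of amino acids, and the cause of its height in pool 21 was not tested. ATF4, the transcription factor of the response, had 435 CPM in pool 21 and between 90.3 and 225 CPM in the other pools. Pool 21 was the highest pool for 14 of the 25 listed response genes in the table (56%), for 7 of the 43 genes (SLC7A11, SLC7A1, SLC1A4, SLC1A5, SLC6A9, SLC38A2 and EIF4E). Of the 35 retained genes it was the highest pool for 5 (14.3%), and of all retained genes for 5.54%.

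Of the 35 retained genes, 1 passed the test with the amino acid response score, and 0.0895% of all 12289 genes tested did. This gene was SLC1A4, whose log2 abundance was higher by 0.70 ± 0.13 (SE) for each SD of the score (edgeR adjusted p = 0.0134). The unadjusted p was 0.05 or less for 7 of the 35. Of these, SLC7A1 had a slope of 0.65 and SLC1A5 a slope of 0.29 (edgeR adjusted p = 0.333 for both), SLC38A2 had 0.19, and SLC36A1, SLC1A3 and SLC1A1 had -0.19, -0.16 and -0.13. The abundance in pool 21 was 5.16 times the median of the other pools for SLC1A4, 5.71 times for SLC7A1, 2.78 times for SLC1A5 and 2.12 times for SLC38A2. SLC36A1 in pool 21 was 0.477 times that median and lowest of all pools. SLC7A5 and SLC3A2 were at 0.938 and 1.12 times the median of the other pools, with slopes of 0.04 and 0.10.

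The call of SLC1A4 rested on pool 21. Without it the score was computed and scaled again to an SD of 1 over the other pools. Slopes with and without pool 21 are therefore on different scales, and their sizes do not show whether a relation weakened. The slope of SLC1A4 was then 0.53 ± 0.15 (SE) with an unadjusted p of 0.00102 and an adjusted p of 0.999 in edgeR. Of the 35 genes 0 passed, against 0.00814% of all genes. There were 2 with an unadjusted p at or under 0.05, SLC1A4 and SLC7A1, whose slope was 0.52. The slopes of SLC1A5, SLC38A2 and SLC36A1 without pool 21 were 0.14, 0.05 and -0.05, and those of SLC1A3 and SLC1A1 were both -0.10. With all 27 pools DESeq2 also called 1 of the 35 genes, and 0.374% of all genes. In pools 45, 42 and 32, the next highest for SLC1A4, its abundance was 19.4, 15.1 and 12.0 CPM. By a rank measure, the genes most like SLC1A4 over the 27 pools were PTPN12 (rho 0.770), DDX21 (0.752) and EPRS1 (0.738), and SLC7A1 was 10th (0.651).

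**Figure D4:**
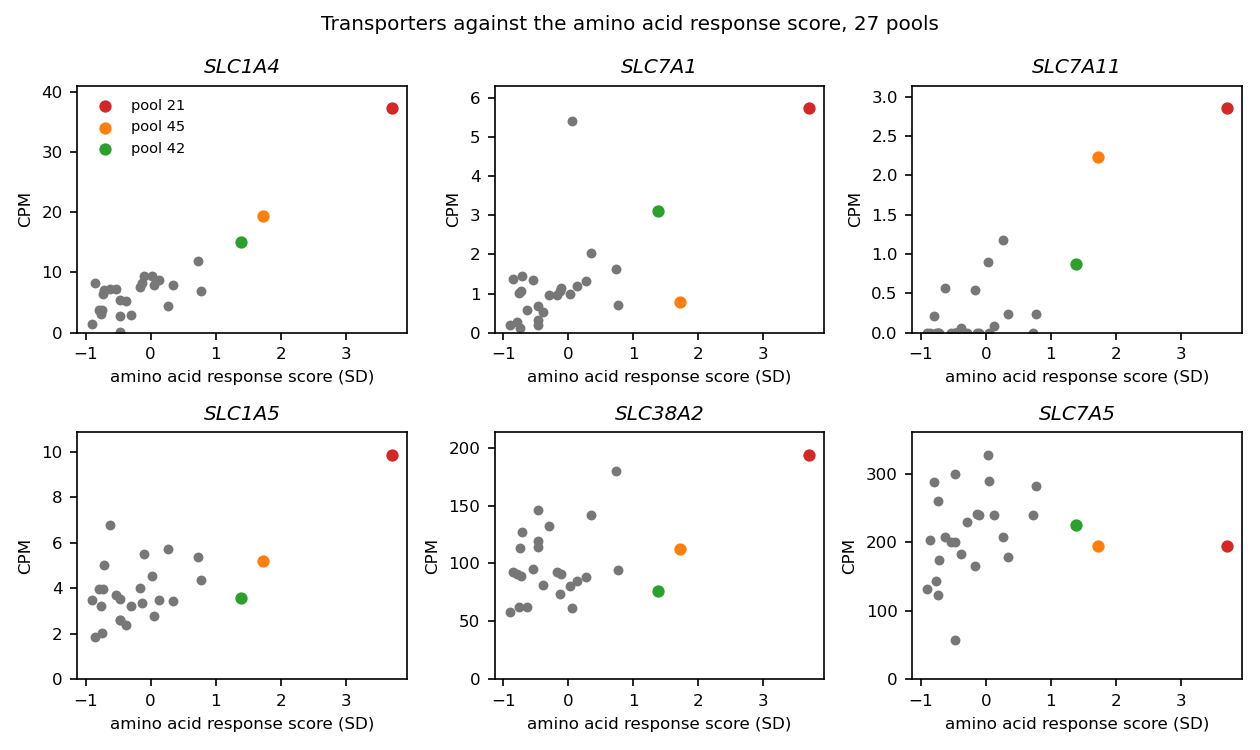
Abundance of 6 transporter genes (y axes, CPM) against the amino acid response score (x axes, SD), with 1 point for each of 27 pools and pools 21, 45 and 42 in colour. SLC1A4 is highest in pool 21 (37.3 CPM) and next in pools 45 and 42, while SLC7A5 in pool 21 lies at 0.938 times the median of the other pools.

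The second measure was interferon tau, whose summed abundance was between 7.21 and 597 CPM and was highest in pool 9. Of the 35 genes, 0 passed edgeR's test, against 2.29% of all 12308 genes tested. The unadjusted p was at or under 0.05 for 4 genes. DESeq2 called 0, with 5 at that unadjusted p, and 4.19% of all genes. These 4 genes all had slopes below 0. They were LAMTOR2 at -0.10 (edgeR adjusted p = 0.116), SLC7A5 at -0.19 (edgeR adjusted p = 0.219), SLC3A2 at -0.14 and SLC1A4 at -0.49. Without pool 9 the measure was scaled again over the other pools, and these slopes were then -0.10, -0.08, -0.10 and -0.41. LAMTOR2 alone then had an unadjusted p at or under 0.05, and 0 of the 35 genes and 0.333% of all genes passed edgeR's test.

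The third measure was an epiblast score, the mean standardized abundance of 9 genes such as NANOG and POU5F1. Of the 35 genes, 0 passed edgeR's test, against 0.0813% of all 12301 genes tested, and 5 had an unadjusted p at or under 0.05. SLC38A9 was closest, with a slope of -0.17 ± 0.04 (SE) and an adjusted p of 0.0821 in edgeR, and it was the 1 gene called by DESeq2 (adjusted p = 0.0191), which called 1.3% of all genes. The others were RPS6KB1 at -0.18, GLUL at 0.17, SLC1A3 at 0.19 and SLC6A6 at -0.67. Pool 9 had an epiblast score of -2.08 SD and was the highest pool for SLC38A9 and RPS6KB1. Pools 28 and 31 had scores of -2.41 and -1.98 SD. In these, SLC38A9 had 113 and 119 CPM and RPS6KB1 had 30.0 and 32.3 CPM. Without pool 9, 0 of the 35 genes and 0.0244% of all genes passed edgeR's test, and 5 of the 35 had an unadjusted p at or under 0.05. DESeq2 was not run without pool 9. The total count of the pool, a measure of depth, gave 0 of the 35 genes in edgeR and in DESeq2, with 0 at an unadjusted p at or under 0.05 in edgeR and 0% of all 12310 genes called. None of the 6 relations among the 4 measures passed the test.

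**Figure D5:**
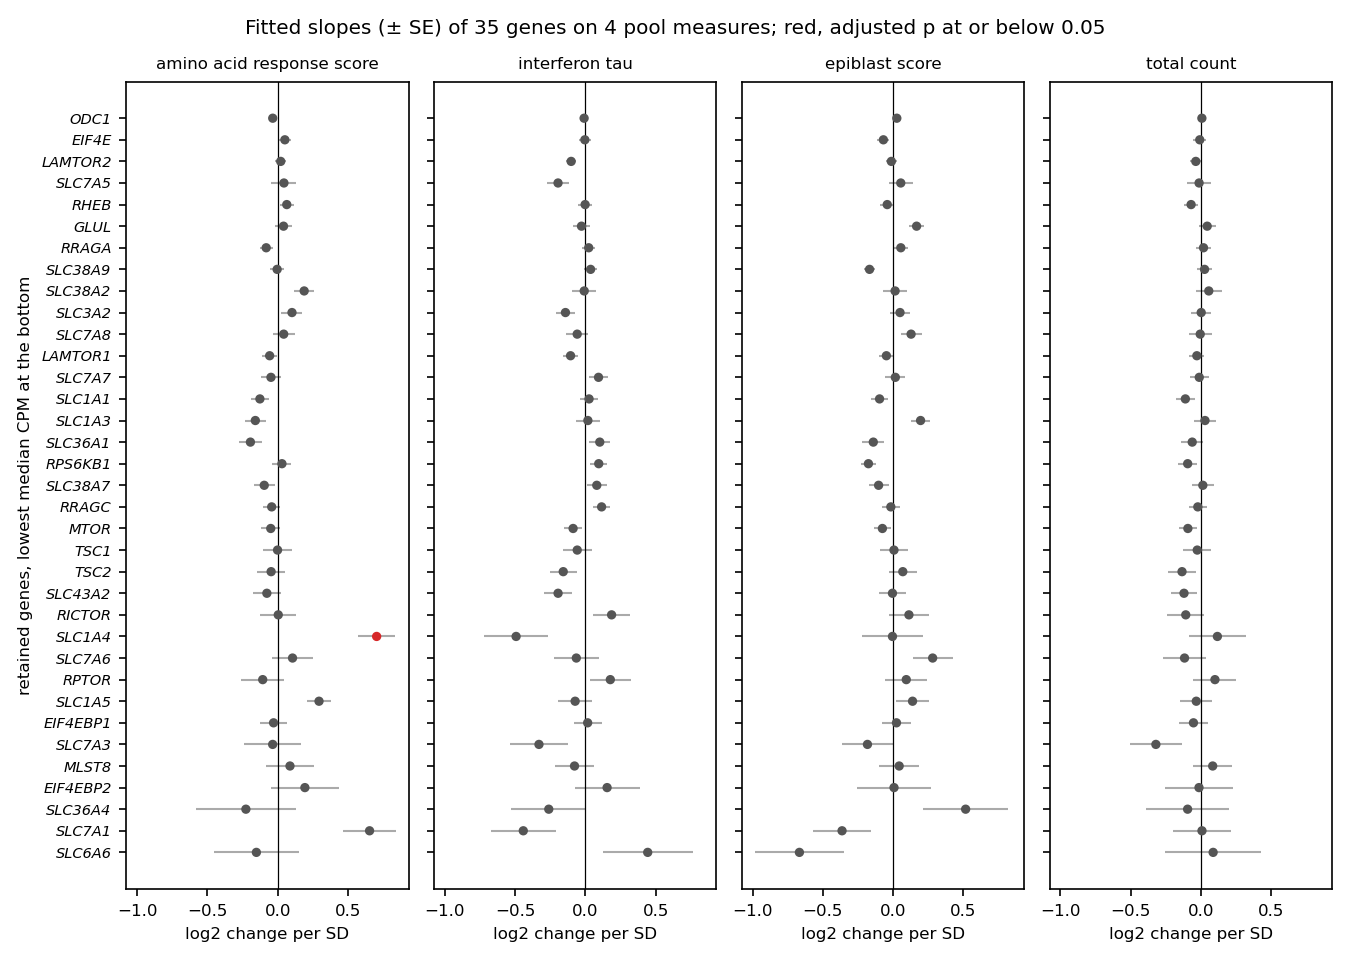
Slopes of the 35 retained genes (y axis, in order of median CPM) on the 4 pool measures, as log2 change per SD on the x axes, with bars of ± 1 SE from edgeR. SLC1A4 on the amino acid response score, in red, is the only slope with an adjusted p of 0.05 or less.

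The wider pathway was described by 6 further lists. SLC7A4, a relative of the cationic transporters, had the highest median of the 14 retained genes among other amino acid transporters, at 381 CPM, and was above SLC7A5 in 26 of 27 pools. All 28 genes found for nutrient sensing by mTORC1 were retained, with the highest medians for SEC13 (253 CPM), a subunit of the GATOR2 complex, and for the Ragulator subunits LAMTOR5 (231 CPM) and LAMTOR4 (159 CPM). Among 19 retained genes of insulin signalling, AKT and mTORC2, the kinases SGK1 and PIK3CB had medians of 162 and 150 CPM. Among 14 targets and outputs of mTORC1, the ribosomal protein gene RPS6 had 1080 CPM and the translation initiation factor EIF4A1 180 CPM. Of the polyamine genes, the spermidine synthase SRM had 323 CPM, and of the glutamine genes, the glutamate dehydrogenase GLUD1 had 343 CPM.

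In these lists 0 genes passed edgeR's test with the amino acid response score, the epiblast score or the total count. With interferon tau, 1 of 11 polyamine genes and 1 of 7 glutamine genes passed, and 0 of the other 4 lists, against 2.29% of all genes. These were SAT1, which acetylates spermidine and spermine for export, with a slope of 0.46 (edgeR adjusted p = 0.0111), and GFPT1, which uses glutamine to make glucosamine phosphate, with 0.32 (edgeR adjusted p = 0.0102). Pool 9 was the highest pool for both. Without it, and with interferon tau scaled again over the other pools, neither passed. The slopes were then 0.39 (edgeR adjusted p = 0.0914) and 0.23 (edgeR adjusted p = 0.149).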

How the data were processed

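Counts of RNA-sequencing reads on genes were used from 27 blastocyst pools, each of 2 embryos. For these, the authors made cDNA from the 3′ ends of transcripts (SMART-Seq v4 3′ DE Kit), prepared libraries with Nextera XT, trimmed the forward reads (fastp), aligned them (STAR, ARS-UCD2.0) and assigned them to genes (featureCounts). The deposited values were raw counts of 32637 genes, not normalized. Tool versions, and the treatment of reads mapped to several places, are not given in the sources used here, so values of genes with near-identical copies are uncertain.

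CPM was a gene's count over the column total of the pool. A gene was retained at 1 CPM or more in 12 pools. Positions are those of RefSeq for ARS-UCD2.0, where all 43 genes were found by symbol. Slopes on 4 standardized measures were tested with edgeR 4.0.16 (quasi-likelihood, TMM) on counts of all 27 pools, with genes of a measure's own list left out, and were called at an adjusted p of 0.05. Scores used log2(CPM + 1). Interferon tau was the log2 of the summed CPM of its genes plus 1. Pairs were tested by Spearman and Pearson correlation with 100000 two-sided permutations, adjusted over 25 pairs. All 43 genes were named, and of the other lists at most 3 genes by median CPM and those called. DESeq2 1.42.0, other scalings, filters, pseudocounts and the omission of pool 9 were alternatives, and the omission of pool 21 was chosen after seeing the data. When a pool was left out, each measure was computed and standardized again over the remaining pools. The members, lists, pairs and tests were chosen with earlier results of these data known. Calculations were tested on simulated data and run with Python 3.11.15, scipy 1.17.1 and R 4.3.3. The labels place no pool in a treatment or replicate and groups were taken only from the labels, so the model of the study was not fitted. Counts are reads and not molecules, so limits from 3 counts cover counting error only.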

Additional observations from a re-analysis of the deposited data

How the results depend on the processing

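The number of members called with the amino acid response score was 2 with all genes with any count, where all 43 were tested and SLC7A11, not among the 35, joined SLC1A4, and 0 without pool 21, an omission chosen after seeing the data. With the epiblast score it was 1 with DESeq2 and 1 with all genes with any count, SLC38A9 in both. Without pool 9 there were 2 partner pairs, GLUL with SLC38A2 being added. The causes were not tested. The other alternatives kept these counts and those for interferon tau and the total count, and SLC1A4 lost its call only without pool 21. The number of the 43 genes retained was 38 at 0.5 CPM, 29 at 2 CPM and 35 with TMM. TMM moved median levels by factors of 0.944 to 1.05.

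Over all genes, calls with the amino acid response score were 11, and 46 with DESeq2, 515 with all genes with any count and 1 without pool 21. With interferon tau they were 282, and 516, 909 and, without pool 9, 41. With the epiblast score they were 10, and 160, 566 and, without pool 9, 3, with 15 without pool 21 and 6 with the total count as a second term. With the total count they were 0, and 561 with all genes with any count. With scaling by total count only, the calls with the amino acid response score were 9 higher and 2 lower, against 7 and 4, and those with the epiblast score 4 and 2, against 3 and 7. DESeq2 gave 10 higher and 36 lower, and 95 higher and 65 lower.

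Levels per kb of transcript were not run, since no transcript length was used here. No paired analysis was possible because the labels put no pool in a treatment or replicate and groups were taken only from the labels. Depth limits the genes below 1 CPM, which was 10.5 counts at the lowest total.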
